A study of Homo sapiens with 8 samples.

Results

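NCI-H1688 is an established human line labelled as small cell lung cancer. Its cells were transduced with a lentivirus for a control short hairpin RNA (shRNA) or for one against KLF9, kept in puromycin for 2 weeks, and their poly(A) RNA was sequenced. The comparison described here is of the 2 libraries labelled NCI-H1688-shKLF9 against the 2 labelled NCI-H1688-shcontrol, 4 of the 8 libraries of the series. The other 4 come from a second line, NCI-H146, with 2 control and 2 KLF9 shRNA libraries of the same kind. No other allele or agent is named in the labels, and all cells of a line were cultured alike. The hairpin sequences, the number of hairpins and what separated replicate cultures are not given in the sources used here, so the p-values below measure the spread between these libraries, which may be technical. Each shRNA group was made as a puromycin-selected stable line. Levels are in TPM, transcript abundance scaled for gene length and library size, and 14740 of 56862 genes had a mean of at least 1 TPM over the 4 libraries and were tested.

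KLF9 is a Krüppel-like zinc finger transcription factor that binds GC-rich promoter elements and mostly represses transcription. Glucocorticoids and thyroid hormone are known to induce it, and in keratinocytes it is a clock output gene that restrains proliferation. In lung epithelium it belongs to the genes that answer glucocorticoid treatment.

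In NCI-H1688, KLF9 was higher, not lower, in the libraries labelled as its knockdown. The KLF9 gene (ENSG00000119138.4, chr9:70384597-70414624, minus strand, GRCh38) measured 0.298 and 0.644 TPM with the control hairpin and 1.95 and 1.6 TPM with the KLF9 hairpin. Both KLF9 shRNA libraries lay above both controls, and the ratio of group means was 3.76. On the log2(TPM + 1) scale the difference was 0.92 ± 0.28 SE and did not pass the test (limma, Benjamini-Hochberg adjusted p = 0.095). These levels are low: they correspond to roughly 23 and 50 reads in the controls and 160 and 117 reads in the KLF9 shRNA libraries, estimated from the value of a single read in each library. In NCI-H146 the same label went with less KLF9, at 67.0 and 61.9 CPM (counts scaled to library size) in the controls and 24.9 and 32.3 CPM in the KLF9 shRNA libraries (log2 fold change -1.17 ± 0.28 SE, edgeR quasi-likelihood adjusted p = 0.0131). The labels are kept as given below. Since KLF9 went against them, no direction in NCI-H1688 is read as an effect of losing KLF9.

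**Figure D1:**
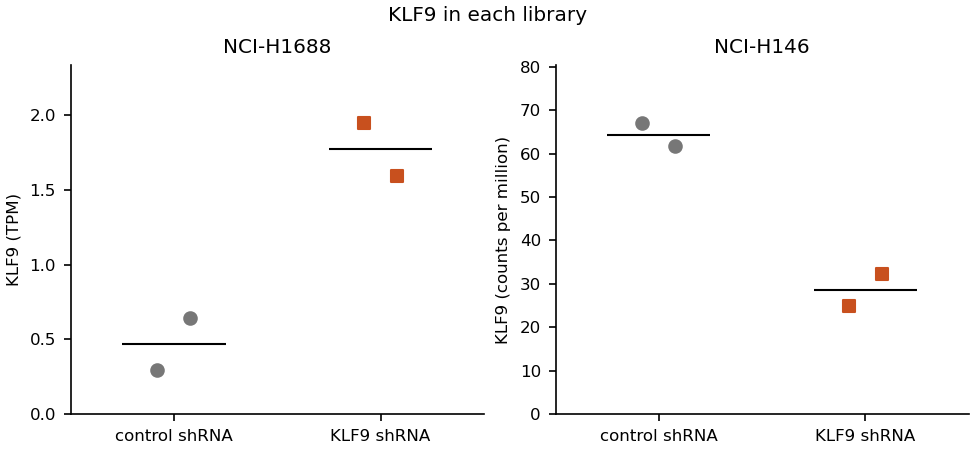
KLF9 in each library, in TPM for NCI-H1688 (left) and in CPM for NCI-H146 (right), with horizontal lines at the mean of 2 libraries. The KLF9 shRNA libraries of NCI-H1688 sit at 1.95 and 1.60 TPM, above both controls, and those of NCI-H146 sit below both controls.

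The markers of the line did not match a neuroendocrine small cell cancer. Among neuroendocrine markers, INSM1 and NEUROD1 were listed at 0 in all 4 libraries, and CHGA, SYP and NCAM1 together gave 0.944 to 2.00 TPM. All 6 epithelial markers were tested and together gave 2849 and 2970 TPM in the controls and 1918 and 1960 TPM in the KLF9 shRNA libraries. Basal and squamous genes were abundant, with KRT17 at 2415 and 2584 TPM, KRT5 at 542 and 569 TPM and TP63, the p63 transcription factor of basal cells, at 50.3 and 41.8 TPM in the controls. Of 8 leukocyte markers, PTPRC and CD3E each reached at most 0.118 TPM in any library, and TYROBP was listed at 0. CD14, a lipopolysaccharide co-receptor, rose from 0.664 and 0.601 TPM to 7.09 and 6.47 TPM, and LAPTM5, a lysosomal membrane protein of blood cells, rose from 8.41 and 8.63 TPM to 15.3 and 14.6 TPM (limma adjusted p = 0.00737 and 0.0142).

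The limma fit called 940 genes higher (6.38% of those tested) and 1436 genes lower (9.74%) in the KLF9 shRNA libraries, at an adjusted p under 0.05. Rises were larger than falls, with a median size of 0.70 against 0.51 on the log2 scale, and 265 rises (1.8% of tested genes) but 94 falls (0.638%) reached at least 1. Falls gathered among abundant genes: 1.33% of genes with a mean of 1 to 5 TPM were called lower, against 28.3% of genes above 100 TPM. For rises the corresponding shares were 3.17% and 9.04%. Counts of called list members below stand beside these shares and those of all tested genes. The median over all tested genes was -0.02. Mitochondrially encoded transcripts took 15.4% and 14.7% of all TPM in the controls and 18.2% and 16.8% in the KLF9 shRNA libraries; with those genes left out and the rest rescaled, 1138 genes were called higher and 1102 lower. Calls rested on having all 4 libraries: without 1 control library 16 to 19 genes were called higher and 1 to 5 lower, and without either KLF9 shRNA library limma called none, with 3328 and 3298 genes at an unadjusted p under 0.05. In bulk RNA of this kind, fewer cells of a type and less RNA per cell cannot be told apart.

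One chromosome stood apart from the others. Chromosome 22 had 360 tested genes with a median log2 fold change of -0.18, and 16.7% of them were called lower. The medians of the other autosomes ran from -0.051 to 0.036, and their shares called lower from 6.07% to 11.8%. The shift was present in each KLF9 shRNA library, at -0.201 and -0.159 against the control mean, while the controls differed from each other by 0.042. PES1, a ribosome assembly factor on this chromosome, appears below among the genes that fell.

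**Figure D2:**
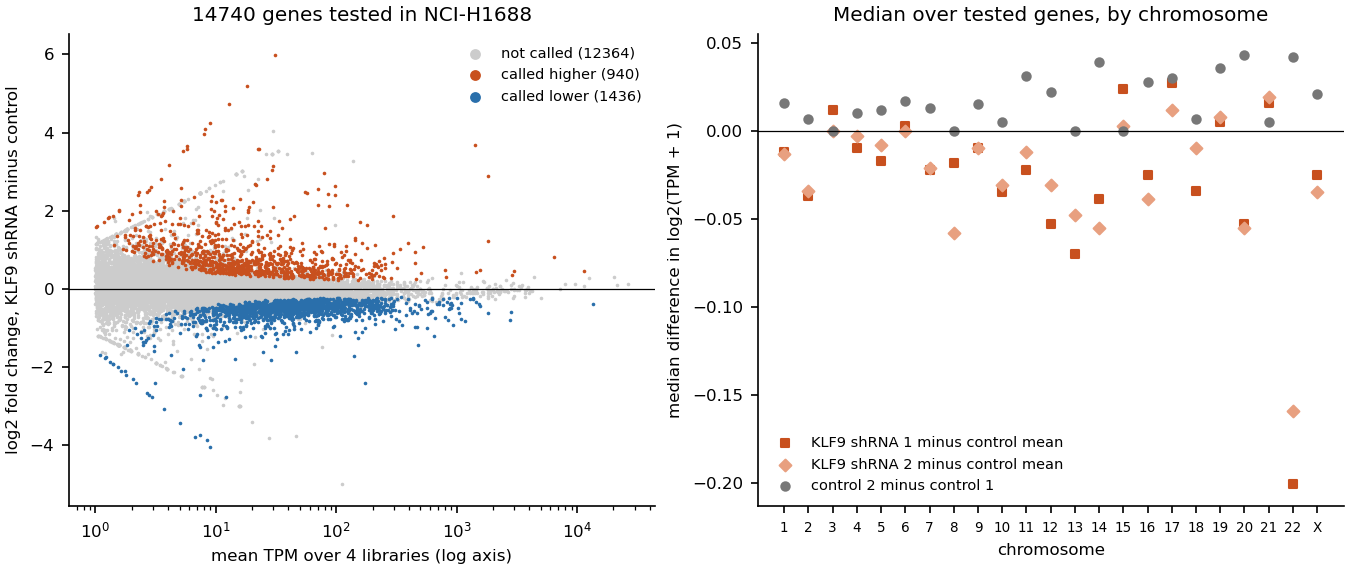
Left, log2 fold change of each of 14740 tested genes against its mean TPM, with 940 genes called higher and 1436 called lower by limma. Right, median difference in log2(TPM + 1) over the tested genes of each chromosome for each KLF9 shRNA library against the control mean and for control 2 against control 1; chromosome 22 lies at -0.201 and -0.159 in the KLF9 shRNA libraries.

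Genes linked to FOXO transcription factors and to growth restraint rose together. FOXO factors are held in the cytoplasm by AKT when growth factors are present and drive genes of cell cycle arrest, stress resistance and reduced insulin signalling when they are not. Of 24 genes on this list 21 were tested, 14 rose, none fell, and the median was 0.86 against -0.02 for all tested genes. The share of all tested genes called higher was 6.38%. ARRDC3, an arrestin-domain adaptor that restrains receptor signalling, was at 5.08 and 4.46 TPM in the controls and 22.2 and 24.3 TPM in the KLF9 shRNA libraries (log2 fold change 2.07 ± 0.11 SE, limma adjusted p = 0.00405). PIK3IP1, an inhibitor of PI3 kinase, went from 3.12 and 3.43 TPM to 16 and 16.2 TPM (log2 fold change 2.00 ± 0.10 SE, limma adjusted p = 0.00405). In both genes each KLF9 shRNA library was several times above each control. TXNIP, an arrestin-domain inhibitor of thioredoxin and glucose uptake, stood at 97.8 and 101 TPM and then 229 and 224 TPM (log2 fold change 1.18 ± 0.05 SE, limma adjusted p = 0.0028). CCNG2, a cyclin linked to cell cycle exit, rose from 15.5 and 16.1 TPM to 41.1 and 39.9 TPM (log2 fold change 1.31 ± 0.07 SE, limma adjusted p = 0.00421). BCL6, a transcriptional repressor, was uneven between the controls, at 6.26 and 3.24 TPM, and even in the KLF9 shRNA libraries, at 18.3 and 18.3 TPM (limma adjusted p = 0.0226). CITED2, BTG1, IRS2, SESN1, ARRDC4, YPEL2, YPEL3 and YPEL5 were called higher too, with log2 fold changes from 0.35 for YPEL5 to 1.11 for CITED2. The factors themselves were not called: FOXO1 was at 4.96 and 4.91 TPM and 5.84 and 5.81 TPM, and FOXO3 at 9.48 and 8.88 TPM and 11.9 and 13.7 TPM (limma adjusted p = 0.291 and 0.0629).

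The cell cycle regulators that were called split by role. CDKN1B, which encodes the CDK inhibitor p27, went from 15.4 and 13.7 TPM in the controls to 29.3 and 30.9 TPM (log2 fold change 1.00 ± 0.09 SE, limma adjusted p = 0.00925), and CDKN1C, which encodes p57, from 0.646 and 0.724 TPM to 3.27 and 2.8 TPM (limma adjusted p = 0.0283). All 3 D-type cyclins, which start G1 by activating CDK4 and CDK6, fell. CCND1 stood at 208 and 179 TPM and then 91.3 and 89.4 TPM (log2 fold change -1.09 ± 0.09 SE, limma adjusted p = 0.00769), with CCND2 at 36.7 and 37.3 TPM and 22.4 and 21.1 TPM and CCND3 at 44.1 and 44.2 TPM and 34.3 and 34.4 TPM (limma adjusted p = 0.00993 and 0.0269). Of the 17 tested CDK inhibitors, cyclins and their partners 3 rose, 4 fell and 10 were not called, with a median of -0.10. The remaining calls were CDKN2C higher and E2F1 lower. Genes of DNA replication fell as well, with 22 of 42 lower, none higher and a median of -0.42. Of all tested genes 9.74% were called lower, and of those with a mean of 20 to 100 TPM 18.2%. Replication genes that fell included GINS2 and GINS4 of the replicative helicase, at 0.70 and 0.79 lower on the log2 scale. The replication factor RFC4 was 0.64 lower and the flap nuclease FEN1 0.59 lower.

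Growth factor signalling genes moved in both directions, with ligands mostly down. AREG, the amphiregulin ligand of EGFR, was at 739.7 and 769 TPM in the controls and 386 and 374 TPM in the KLF9 shRNA libraries (log2 fold change -0.99 ± 0.05 SE, limma adjusted p = 0.00405). TGFA, another EGFR ligand, went from 51.4 and 51.3 TPM to 30.6 and 30.3 TPM (log2 fold change -0.74 ± 0.06 SE, limma adjusted p = 0.00769), and HBEGF from 139 and 138 TPM to 84 and 89.6 TPM (log2 fold change -0.66 ± 0.06 SE, limma adjusted p = 0.00925). The 3 ligands fell in both libraries by similar amounts, and NRG1, a ligand of ERBB3, fell from 8.91 and 6.15 TPM to 3.72 and 3.32 TPM. On the receptor side FGFR3 rose from 3.8 and 2.52 TPM to 12.4 and 9.33 TPM (limma adjusted p = 0.0209), ERBB2 and IGF1R rose, and AXL fell from 96.2 and 90.3 TPM to 50.8 and 52.4 TPM. ERRFI1, a feedback inhibitor of EGFR, rose by 0.47. EGFR itself was at 79.7 and 71.9 TPM and 77.8 and 78.7 TPM and was not called (limma adjusted p = 0.682).

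Targets of the ERK kinases fell more often than they rose, 12 against 2 of 28 tested, with a median of -0.28. Among all tested genes 9.74% were called lower and 6.38% higher. SPHK1, which makes sphingosine-1-phosphate, was at 35.4 and 35.6 TPM and 13.9 and 17.6 TPM (log2 fold change -1.13 ± 0.12 SE, limma adjusted p = 0.0129). IL11, a cytokine of the IL-6 family, stood at 55.6 and 55 TPM and 27.4 and 25.4 TPM (log2 fold change -1.04 ± 0.07 SE, limma adjusted p = 0.00601), and the chromatin protein HMGA1 at 563 and 580.2 TPM and 366 and 375 TPM (log2 fold change -0.62 ± 0.05 SE, limma adjusted p = 0.0076). The fall did not extend to the feedback phosphatases and Sprouty genes as a group: DUSP4 fell by 0.56, DUSP1 rose by 0.44, and DUSP5, DUSP6, DUSP7, SPRY2 and SPRY4 were not called. Within AP-1, the dimeric factor that ERK signalling feeds, FOS rose from 195 and 212 TPM to 403 and 376 TPM and FOSB from 29 and 27.6 TPM to 62.8 and 56.5 TPM (limma adjusted p = 0.00728 and 0.00743). JUNB, JUND and FOSL2 rose as well, FOSL1 was the one subunit of 13 tested that fell, and JUN, at 17.3 and 17.4 TPM and 17.4 and 17.9 TPM, was not called.

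Hypoxia targets rose in 25 of 31 tested, with none lower and a median of 0.73. These genes are driven by the HIF factors, which bind the core letters ACGTG when oxygen or prolyl hydroxylase activity is low. EGLN3, one of the prolyl hydroxylases that mark HIF for degradation and itself a HIF target, was at 2.35 and 3.6 TPM and then 14.5 and 16.2 TPM (log2 fold change 2.06 ± 0.19 SE, limma adjusted p = 0.00975). The carbonic anhydrase CA12 stood at 3.77 and 4.6 TPM and 15.9 and 15.6 TPM (log2 fold change 1.69 ± 0.12 SE, limma adjusted p = 0.00683), below the better known CA9 in the KLF9 shRNA libraries, where CA9 reached 42.2 and 43.4 TPM. The mitophagy receptors BNIP3 and BNIP3L rose from 24.9 and 27.2 TPM to 55.9 and 56.1 TPM and from 15.6 and 16.9 TPM to 26.3 and 29.1 TPM (limma adjusted p = 0.00601 and 0.0158). PDK1, which shuts pyruvate out of mitochondria, and the histone demethylase KDM3A rose by 1.15 and 1.26 on the log2 scale. The list was not uniform: the glucose transporter SLC2A1, at 142 and 139.9 TPM and 155 and 163 TPM, was among 6 members not called. Glycolytic enzymes themselves split, with 6 of 20 higher, 2 lower and 12 not called. ALDOC rose from 8.69 and 8.36 TPM to 27.3 and 30.3 TPM (limma adjusted p = 0.00431), whereas ENO1 fell by 0.26 and GAPDH, at 3604 and 3942 TPM and 3716 and 3735 TPM, was not called.

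The letters ACGTG, on either strand, occurred in the promoter windows of 11 of the 20 hypoxia targets that rose and had a RefSeq entry (55.0%), against 26.8% of the 10349 tested genes with an entry. Each window runs from 250 bases before to 50 bases after the annotated gene start (RefSeq, GRCh38.p14). The CA9 window is shown whole, since CA9 was the largest riser of this list with an entry, and 30 bases around the match are shown for the next 5 by adjusted p. Capitals mark the match, written as CACGT where it lies on the other strand.
CA9 (chr9:35673678-35673977, plus strand): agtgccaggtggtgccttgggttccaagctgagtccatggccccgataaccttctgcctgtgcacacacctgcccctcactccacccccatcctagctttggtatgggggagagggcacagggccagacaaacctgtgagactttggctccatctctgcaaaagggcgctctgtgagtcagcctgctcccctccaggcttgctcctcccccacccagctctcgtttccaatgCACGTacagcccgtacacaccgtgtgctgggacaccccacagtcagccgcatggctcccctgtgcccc
DDIT4 (chr10:72273787-72273816, plus strand): agaacgttgcttACGTGcgcccggagtcca
BNIP3 (chr10:131982039-131982068, minus strand): cgcacgcgccgCACGTGccacacgcacccc
P4HA1 (chr10:73096935-73096964, minus strand): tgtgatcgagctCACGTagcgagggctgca
INSIG2 (chr2:118088364-118088393, plus strand): ggctcgcaggtcCACGTcttattgacagca
ANKRD37 (chr4:185396686-185396715, plus strand): cagtgtttgtgtACGTGcggccgtggcggg
In CA9 the match starts 18 bases before the gene start, and in the other five it starts 86 to 143 bases before it. The BNIP3 match is the palindrome CACGTG, which is also the E-box described below. Over all genes called higher, the letters were no more frequent than among tested genes, at 25.7%, and a match describes the sequence only. Among genes called lower the share was 30.1%. It was 40.0% (10 of 25) among the ribosome biogenesis genes that fell, described below. The hypoxia list was assembled from known targets, so its share describes that list.

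Interferon-stimulated genes, the antiviral programme downstream of the interferon receptors, rose in 25 of 42 tested with none lower and a median of 0.69. RSAD2, which encodes viperin, was near absent at 0.577 and 1.02 TPM in the controls and reached 6.27 and 6.89 TPM (log2 fold change 2.09 ± 0.20 SE, limma adjusted p = 0.0103). HERC5, the ligase that attaches ISG15 to proteins, went from 2.11 and 2.08 TPM to 8.33 and 9.06 TPM (log2 fold change 1.65 ± 0.13 SE, limma adjusted p = 0.00769), and IFI44 from 6.32 and 6.39 TPM to 21.5 and 22.7 TPM (log2 fold change 1.65 ± 0.08 SE, limma adjusted p = 0.00405). The membrane proteins IFITM1 and IFITM3, whose sequences are closely alike, were the most abundant of those that rose, IFITM3 going from 1209.9 and 1377 TPM to 1859 and 1758 TPM. RNA sensors were included, with RIGI and IFIH1 higher by 0.69 and 0.65. Of the driving factors, STAT2 rose by 0.70 and IRF1 by 0.85, while IRF9, at 8.75 and 10.6 TPM and 13.7 and 16.3 TPM, was not called (limma adjusted p = 0.0573). Leukocyte markers moved with this list only in CD14 and LAPTM5, with PTPRC at 0 in both KLF9 shRNA libraries.

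The interferon-stimulated response element, searched on both strands as GAAA, any 2 bases and GAAA again, was present in 15 of the 21 risers of this list with a promoter entry (71.4%), against 2.76% of tested genes. Among all genes called higher the share was 5.65%, and among those called lower 2.27%. The IFIT3 window, which holds a pair of elements, is shown whole. A further 5 members are shown by 30 bases, chosen by adjusted p with the same genes and matches left out. Capitals mark the element, read as paired TTTC on the other strand.
IFIT3 (chr10:89327747-89328046, plus strand): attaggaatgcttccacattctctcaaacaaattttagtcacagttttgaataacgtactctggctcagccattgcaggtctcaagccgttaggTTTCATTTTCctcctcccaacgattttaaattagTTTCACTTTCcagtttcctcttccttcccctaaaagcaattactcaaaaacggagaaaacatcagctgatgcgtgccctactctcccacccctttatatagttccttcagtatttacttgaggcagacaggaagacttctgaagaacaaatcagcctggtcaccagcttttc
ISG15 (chr1:1013380-1013409, plus strand): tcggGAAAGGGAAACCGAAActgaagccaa
IFI44 (chr1:78649761-78649790, plus strand): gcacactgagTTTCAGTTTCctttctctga
IFIT1 (chr10:89392510-89392539, plus strand): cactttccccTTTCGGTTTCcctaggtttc
ISG20 (chr15:88638937-88638966, plus strand): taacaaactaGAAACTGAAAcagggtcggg
IFITM1 (chr11:314024-314053, plus strand): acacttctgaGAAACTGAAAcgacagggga
In IFIT3 the elements start 156 and 122 bases before the gene start. ISG15 carries overlapping matches, and in IFITM1 the element begins 6 bases before the start. The list was assembled from known interferon targets, so the share describes that list and is no sign of which factor was active here.

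Complement and acute-phase genes rose in 12 of 19 tested, with 1 lower and a median of 1.25, the highest median of the lists with at least 7 tested members. C1R and C1S, the proteases that start the classical complement pathway, went from 4.14 and 3.47 TPM to 19.2 and 20.6 TPM and from 5.99 and 7.37 TPM to 30.1 and 29.9 TPM (limma adjusted p = 0.00431 and 0.00465). C3, the central component, stood at 54.7 and 53.5 TPM and 125 and 116 TPM (log2 fold change 1.14 ± 0.06 SE, limma adjusted p = 0.00431). LCN2, which binds bacterial siderophores, rose from 69 and 77.2 TPM to 242 and 241 TPM (log2 fold change 1.71 ± 0.07 SE, limma adjusted p = 0.00273). Each of these genes was even within a group and separate between groups. Antiproteases of the airway lining rose too: PI3, which encodes elafin, went from 18.8 and 20.2 TPM to 118 and 123 TPM (log2 fold change 2.57 ± 0.07 SE, limma adjusted p = 0.00115), and SLPI from 79.9 and 89.4 TPM to 192 and 213 TPM (log2 fold change 1.25 ± 0.09 SE, limma adjusted p = 0.00625). SAA1 and SAA2, serum amyloid genes with nearly the same coding sequence, rose from 79.1 and 95 TPM to 264 and 277 TPM and from 22 and 28.9 TPM to 120.4 and 109 TPM, and how reads were divided between them is not stated. Among the shields that protect cells from complement, CD46 and CD55 rose by 0.48 and 0.93, and CD59 fell from 288 and 333 TPM to 216 and 206 TPM. Hepatocyte markers, the usual source of these proteins, were near 0 for ALB, APOA1, APOB and TTR, and SERPINA1, the fifth, rose from 3.01 and 2.39 TPM to 5.58 and 5.17 TPM.

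The alternative pathway protease factor B, CFB, rose from 15.9 and 18.4 TPM to 141 and 140.4 TPM. Its RefSeq promoter window is shown because it holds a kappaB letter pattern, in capitals, starting 112 bases before the gene start.
CFB (chr6:31945845-31946144, plus strand): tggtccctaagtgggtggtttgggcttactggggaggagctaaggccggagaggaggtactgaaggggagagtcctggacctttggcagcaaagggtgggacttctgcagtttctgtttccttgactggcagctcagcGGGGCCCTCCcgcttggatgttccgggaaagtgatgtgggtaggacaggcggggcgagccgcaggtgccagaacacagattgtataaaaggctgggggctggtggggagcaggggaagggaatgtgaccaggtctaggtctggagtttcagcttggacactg
KappaB patterns, searched by the usual consensus on both strands, were found in 18.0% of the windows of genes called higher, 13% of those of tested genes and 11.2% of those of genes called lower. Of the 21 NF-kB subunits and feedback genes 9 rose and 1 fell, with a median of 0.32. ICAM1, an adhesion molecule, stood at 12.4 and 14.6 TPM and 24.6 and 27.4 TPM, and NFKBIZ, a nuclear co-factor of NF-kB, at 13.1 and 9.55 TPM and 21.1 and 26.3 TPM (limma adjusted p = 0.0161 and 0.0332). RELA, RELB, NFKB2 and TNFAIP3 were not called.

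Cytokines did not move as a block. Of 26 tested 12 rose and 4 fell, with a median of 0.53. CXCL10, an interferon-induced chemokine for T cells, went from 2.54 and 2.46 TPM to 14 and 17.4 TPM (log2 fold change 2.25 ± 0.14 SE, limma adjusted p = 0.00551), and CSF3, the granulocyte growth factor, from 4.34 and 4.66 TPM to 17.7 and 14.8 TPM (log2 fold change 1.65 ± 0.13 SE, limma adjusted p = 0.00745). TNFSF10, the death ligand TRAIL, rose from 6.89 and 7.08 TPM to 32.7 and 27.8 TPM (log2 fold change 1.97 ± 0.11 SE, limma adjusted p = 0.00431). In contrast IL1A and IL1B, the interleukin-1 ligands, fell by 0.41 and 0.55, while their antagonist IL1RN rose by 0.81. LIF fell from 64.8 and 65.1 TPM to 43 and 48 TPM, and IL6, at 85.5 and 79.9 TPM and 75.5 and 76 TPM, was not called. Immune checkpoint ligands fell: CD274, which encodes PD-L1, went from 17.2 and 13.2 TPM to 6.15 and 7.9 TPM and PDCD1LG2 from 3.97 and 3.77 TPM to 1.68 and 1.87 TPM (limma adjusted p = 0.0304 and 0.0408). TNFRSF12A, the TWEAK receptor, fell from 214 and 229.9 TPM to 104 and 104 TPM (log2 fold change -1.09 ± 0.06 SE, limma adjusted p = 0.00431).

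S100 genes, small calcium-binding proteins of which several lie in the epidermal cluster on chromosome 1, rose in 5 of 15 tested and fell in 2, with a median of 0.07 that turned to -0.02 without control library 1. S100P, a ligand of the receptor RAGE encoded outside that cluster, went from 14.4 and 17.9 TPM to 93.6 and 94.2 TPM (log2 fold change 2.48 ± 0.11 SE, limma adjusted p = 0.00356). S100A8 rose from 192 and 223 TPM to 2591 and 2700 TPM (log2 fold change 3.67 ± 0.09 SE, limma adjusted p = 0.00115). S100A9 rose from 419 and 453 TPM to 3156 and 3298 TPM (log2 fold change 2.89 ± 0.06 SE, limma adjusted p = 0.00115). S100A7 went from 4.22 and 7.18 TPM to 49.8 and 56.2 TPM (limma adjusted p = 0.00745). S100A12, the third calgranulin beside S100A8 and S100A9, was far lower than they were, at 1.35 and 0.522 TPM and then 7.56 and 4.77 TPM (limma adjusted p = 0.0283). S100A2, an S100 gene of basal cells, fell from 3222 and 3527 TPM to 2284 and 2236 TPM (log2 fold change -0.58 ± 0.07 SE, limma adjusted p = 0.0135), and S100A16 fell by 0.54. S100A6, S100A10, S100A11 and S100A14 were not called.

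Clade B serpins, intracellular protease inhibitors of squamous epithelium, rose in 5 of 10 tested and fell in 2. SERPINB3 went from 29.4 and 31.2 TPM to 161 and 165 TPM (log2 fold change 2.39 ± 0.06 SE, limma adjusted p = 0.00115), its neighbour SERPINB4 from 5.2 and 6.49 TPM to 45.9 and 48.8 TPM, and SERPINB13 from 4.69 and 5.4 TPM to 16.5 and 13 TPM. SERPINB2, the plasminogen activator inhibitor of the same chromosome 18 cluster, moved the other way, from 207 and 218 TPM to 83.9 and 94.6 TPM (log2 fold change -1.24 ± 0.08 SE, limma adjusted p = 0.00538), as did SERPINB7. SERPINB3 and SERPINB4 are near-identical copies. Their 300-base RefSeq promoter windows match at 296 bases (98.7%), and the last 110 bases of each window are printed with the differing bases in capitals.
SERPINB3 (chr18:63661844-63661953, minus strand): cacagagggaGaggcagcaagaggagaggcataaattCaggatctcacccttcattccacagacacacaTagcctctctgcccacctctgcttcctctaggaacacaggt
SERPINB4 (chr18:63644207-63644316, minus strand): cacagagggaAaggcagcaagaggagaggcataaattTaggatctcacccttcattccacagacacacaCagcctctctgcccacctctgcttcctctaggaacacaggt
Reads from one copy may have been assigned to the other by the authors' counting, so the level of each is uncertain.

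Squamous and epithelial genes moved in both directions. In the squamous list 9 of 22 tested rose and 4 fell, beside 6.38% and 9.74% of all tested genes. CSTA, a cystatin of the cornified envelope, rose from 162 and 174 TPM to 263 and 260.3 TPM (log2 fold change 0.64 ± 0.06 SE, limma adjusted p = 0.00944), and the stress keratin KRT6B from 6.89 and 6.76 TPM to 15.7 and 15.6 TPM, while KRT5, KRT6A and SFN fell by 0.42, 0.38 and 0.55. CASP14, the caspase of terminal keratinocyte differentiation, was close to absent at 0.109 and 0.0855 TPM in the controls and reached 5.95 and 5.47 TPM (log2 fold change 2.61 ± 0.20 SE, limma adjusted p = 0.0076). On the list headed simple-epithelium keratins, which is wider than its name, 4 of 8 tested fell and 1 rose. KRT8 fell from 1202 and 1227 TPM to 629 and 656 TPM, and KRT18 from 1051 and 1092 TPM to 617 and 611 TPM. The list also holds KRT81, which went from 696 and 744 TPM to 475 and 472 TPM. KRT80, another member, went from 42 and 40.9 TPM to 25.4 and 24.7 TPM. Of 20 tested cadherins, junction genes and factors of the epithelial-mesenchymal transition 8 rose and 3 fell. The epithelial cadherins CDH1 and CDH3 rose by 0.46 and 0.51, and the 3 that fell were CDH2, SNAI2 and VIM. VIM, the intermediate filament of mesenchymal cells, was at 3.76 and 4.22 TPM and 0.829 and 1.08 TPM, and CDH11, a mesenchymal cadherin outside that list, fell from 16.7 and 12.1 TPM to 4.24 and 4.65 TPM (limma adjusted p = 0.0205 and 0.0149). COL1A1, a collagen of fibroblasts, moved the other way, from 12.1 and 13.8 TPM to 19.7 and 17.5 TPM (limma adjusted p = 0.0486), and the other fibroblast markers were too low to test. Of the secretory list 3 of 10 tested rose and none fell: MUC16, which encodes the CA125 mucin, went from 2.14 and 1.56 TPM to 7.93 and 7.89 TPM, WFDC2, which encodes HE4, from 5.32 and 8.25 TPM to 21.6 and 26.6 TPM, and LYPD3 by 0.44.

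Several further genes rose strongly. HCAR2 and HCAR3, neighbouring receptors for hydroxy-carboxylic acids whose sequences are nearly the same, went from 4.87 and 5.55 TPM to 37 and 38.7 TPM and from 4.75 and 5.14 TPM to 36.9 and 37.4 TPM (log2 fold change 2.65 ± 0.10 SE and 2.68 ± 0.08 SE, limma adjusted p = 0.00227 and 0.00153). Reads shared between the copies make each level uncertain. COMMD5, a subunit of the Commander endosomal recycling complex, rose from 25 and 28.3 TPM to 167 and 173 TPM (log2 fold change 2.63 ± 0.08 SE, limma adjusted p = 0.00145). KLHDC7B was uneven, at 15.3 and 4.13 TPM in the KLF9 shRNA libraries against 0.460 and 0.595 TPM, and it lost its call under quantile normalization. SAT1, which acetylates polyamines for export, went from 1058 and 1141 TPM to 2593 and 2549.7 TPM (log2 fold change 1.23 ± 0.06 SE, limma adjusted p = 0.00381). FTH1, the ferritin heavy chain that stores iron, was among the most abundant transcripts and rose from 4599.7 and 4753 TPM to 8129 and 8393 TPM (log2 fold change 0.82 ± 0.06 SE, limma adjusted p = 0.00625); it is a member of the NRF2 list and has processed pseudogenes that can share its reads.

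**Figure D3:**
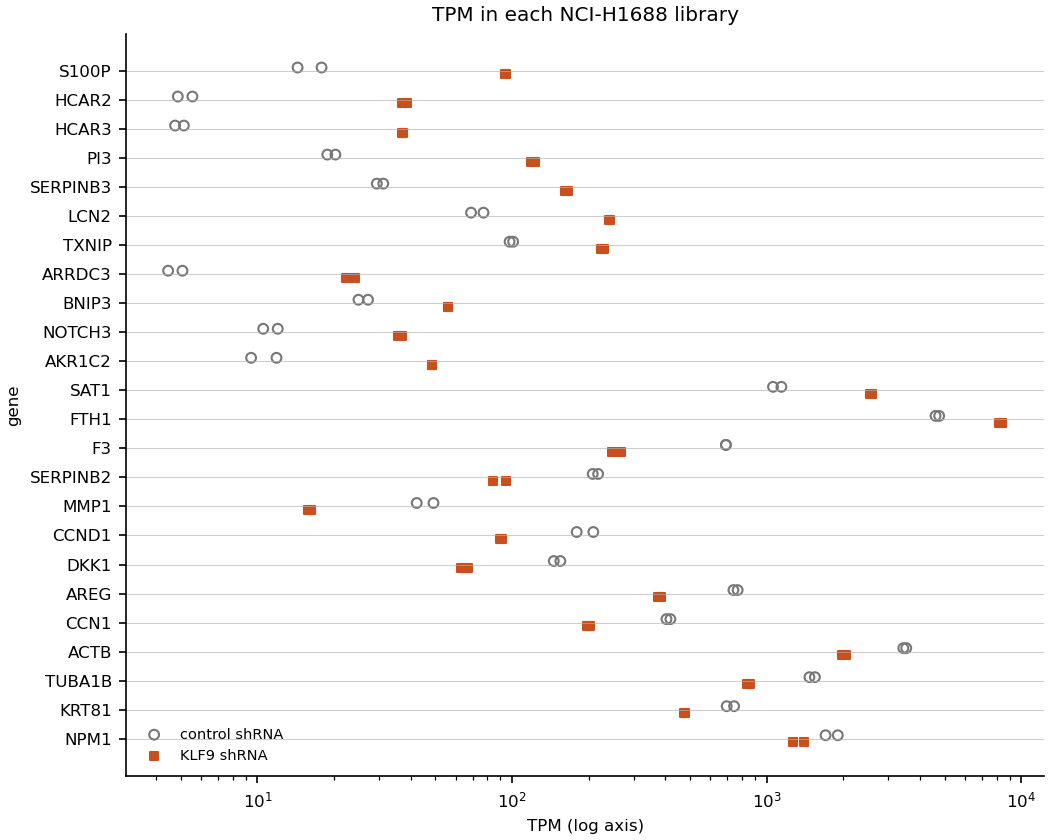
TPM of 24 named genes in each NCI-H1688 library on a log axis, with open circles for the control libraries and filled squares for the KLF9 shRNA libraries. In each gene drawn the pairs do not overlap; S100P to FTH1 are higher and F3 to NPM1 lower in the KLF9 shRNA libraries.

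Enzymes of xenobiotic and retinoid metabolism rose in 8 of 21 tested, with 1 lower and a median of 0.63. ALDH3A1, an aldehyde dehydrogenase of airway and cornea, went from 4.36 and 3.56 TPM to 15.9 and 18.9 TPM (log2 fold change 1.89 ± 0.14 SE, limma adjusted p = 0.0074), and CYP24A1, which inactivates vitamin D, from 0.729 and 0.616 TPM to 5.21 and 6.08 TPM (log2 fold change 1.99 ± 0.19 SE, limma adjusted p = 0.0101). The retinoic acid carrier CRABP2 rose from 0.937 and 0.665 TPM to 4.95 and 4.04 TPM. The 3 tested AKR1C genes, aldo-keto reductases that act on steroids and share much of their sequence, all rose, and their sum went from 28.3 and 31.7 TPM to 106 and 109 TPM. That family was looked at after its values were seen. The wider NRF2 list showed 4 higher, these reductases and FTH1, and 3 lower of 25, and NQO1, its usual marker, was not called at 185 and 205 TPM and 174 and 177 TPM.

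Lysosome and autophagy genes rose in 12 of 30 tested and fell in none, with a median of 0.32, beside 6.38% of all tested genes called higher. The proteases CTSB and CTSD went from 95.3 and 99.3 TPM to 159 and 168 TPM and from 215 and 232 TPM to 354 and 366 TPM (limma adjusted p = 0.00769 and 0.00925). PSAP, the precursor of saposins that help degrade sphingolipids, stood at 182 and 189.9 TPM and 278 and 294 TPM (log2 fold change 0.62 ± 0.06 SE, limma adjusted p = 0.00955). CTSS, a cathepsin of antigen processing, rose from 4.06 and 4.67 TPM to 10.2 and 16.1 TPM. GABARAPL1 and ULK1, which build and start autophagosomes, rose by 0.67 and 0.46, while the master regulator TFEB and the adaptor SQSTM1 were not called. Over all cathepsins 6 of 12 tested rose and none fell, and none of 21 tested genes named for the proton pump V-ATPase was called. The 21 were gathered by gene name and include ATP6V1FNB and ATP6AP1L, which are not established subunits. Both families were chosen after the values were seen, and the difference between them was not tested.

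Signalling receptors and clock genes gave smaller groups. NOTCH3 went from 12 and 10.5 TPM to 35.6 and 37 TPM (log2 fold change 1.61 ± 0.09 SE, limma adjusted p = 0.00465), NOTCH1 rose by 0.54, and NRARP, a feedback inhibitor induced by Notch, rose from 10.2 and 9.86 TPM to 21.5 and 20.4 TPM (limma adjusted p = 0.00818). HES1 and HEY1, the classical Notch targets, were not called. Only 3 of 18 tested Notch genes rose, with none lower, beside 6.38% of all tested genes called higher. Core clock genes rose in 9 of 16 with none lower and a median of 0.44. CRY2 and the nuclear receptors NR1D1, NR1D2 and RORA were among them, and CLOCK and CRY1 were not called. Among 18 tested Krüppel-like and SP factors KLF4, KLF5 and SP1 rose, with KLF5, a factor of proliferating epithelium, at 49 and 47.2 TPM and 70.0 and 70.3 TPM (limma adjusted p = 0.012); KLF13, a close relative of KLF9, was at 15.2 and 14.3 TPM and 16.7 and 16.5 TPM and was not called.

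Ribosome biogenesis fell more completely than any other list of at least 7 tested genes, with 30 of 36 lower, none higher and a median of -0.55. LYAR, a nucleolar factor, went from 48.9 and 52.7 TPM to 24.2 and 23.4 TPM (log2 fold change -1.06 ± 0.07 SE, limma adjusted p = 0.00601), NOP16 from 54.2 and 63.2 TPM to 30.2 and 29.7 TPM (log2 fold change -0.95 ± 0.09 SE, limma adjusted p = 0.0103) and the small nucleolar RNP core protein NOP56 from 94.3 and 91.1 TPM to 46 and 53 TPM (log2 fold change -0.90 ± 0.09 SE, limma adjusted p = 0.0103). The abundant nucleolar proteins NCL and NPM1 fell by 0.57 and 0.43. Genes of RNA polymerases I and III fell in 8 of 28, with none higher. Of all tested genes 9.74% were called lower. Among those with a mean of 20 to 100 TPM the share was 18.2%, and above 100 TPM it was 28.3%. Counts of falling genes here and below stand beside these shares. Cytosolic ribosomal protein genes themselves hardly moved: 4 of 50 large-subunit and 0 of 32 small-subunit genes were called lower, with medians of -0.07 and -0.04. The genes were gathered by name, and the 4 were RPL6, RPL24 and the paralogues RPL7L1 and RPL22L1. This family was looked at after its values were seen, and its pseudogenes can share reads. No cytosolic ribosomal protein gene was called higher. MYC, the factor best known for driving ribosome biogenesis, fell from 285 and 277 TPM to 196 and 209 TPM (log2 fold change -0.47 ± 0.06 SE, limma adjusted p = 0.0149).

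The E-box CACGTG, which MYC and its partner MAX bind, was present in the windows of 8 of the 25 ribosome biogenesis genes that fell and had an entry (32.0%), against 10.2% of tested genes and 11.8% of all genes called lower. Printed below are 30 bases around it in the 5 with the smallest adjusted p, the E-box in capitals.
MRTO4 (chr1:19251807-19251836, plus strand): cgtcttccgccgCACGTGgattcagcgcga
BYSL (chr6:41921515-41921544, plus strand): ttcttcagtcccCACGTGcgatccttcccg
PES1 (chr22:30591880-30591909, minus strand): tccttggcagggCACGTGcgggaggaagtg
WDR43 (chr2:28894658-28894687, plus strand): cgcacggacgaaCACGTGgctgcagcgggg
NOP10 (chr15:34343130-34343159, minus strand): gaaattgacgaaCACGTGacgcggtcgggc
In all but NOP10 the E-box lies just inside the transcribed region, 3 to 28 bases after the gene start. As before, a match is a description of these letters.

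Mitochondrial ribosomal proteins fell in 39 of 75 tested, none rose, and 75 of 75 lay below 0, with a median of -0.35. MRPS23 went from 91.8 and 95.7 TPM to 59.9 and 59 TPM (log2 fold change -0.65 ± 0.06 SE, limma adjusted p = 0.00925), and MRPS34 from 185 and 187 TPM to 133 and 129 TPM (log2 fold change -0.51 ± 0.05 SE, limma adjusted p = 0.0105). The sizes were small and the libraries of a group close together. Proteasome subunits behaved alike, with 17 of 31 lower and none higher, PSMD2 of the regulatory particle going from 223 and 249 TPM to 139.7 and 141 TPM (log2 fold change -0.74 ± 0.07 SE, limma adjusted p = 0.0102) and PSMC1, one of its ATPases, from 166 and 194 TPM to 113 and 117 TPM. Chaperones fell in 17 of 29 and rose in 3. Of the 8 subunits of the cytosolic chaperonin, which folds actin and tubulin, 6 fell, CCT5 from 661 and 748 TPM to 445 and 452 TPM (log2 fold change -0.65 ± 0.07 SE, limma adjusted p = 0.0136), and the mitochondrial pair HSPD1 and HSPE1 fell by 0.57 and 0.56. The 3 that rose were HSPB1, HSPA1A and HSPA1B, of which HSPA1A and HSPA1B are near-identical copies.

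Enzymes that supply nucleotides and charged tRNAs fell as well. Of 27 purine, pyrimidine and one-carbon genes 14 fell and none rose, with a median of -0.37. ADSL, an enzyme of purine synthesis, went from 56.2 and 59.1 TPM to 33.1 and 36.5 TPM (log2 fold change -0.71 ± 0.08 SE, limma adjusted p = 0.0122), and CAD, the first enzyme complex of pyrimidine synthesis, from 33.3 and 32.9 TPM to 22.1 and 20.5 TPM (log2 fold change -0.61 ± 0.07 SE, limma adjusted p = 0.0149). Aminoacyl-tRNA synthetases fell in 9 of 20, VARS1 from 73.1 and 70.2 TPM to 45.1 and 44.3 TPM (log2 fold change -0.67 ± 0.06 SE, limma adjusted p = 0.00925). The amino acid transporters and ATF4 targets showed 3 higher and 5 lower of 25, with a median whose sign changed with the scaling.

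Cytoskeleton genes fell at high levels, in families looked at after their values were seen. ACTB and ACTG1, the cytoplasmic actins, went from 3438 and 3529.6 TPM to 1969.6 and 2047 TPM and from 1381 and 1368 TPM to 776 and 852 TPM (log2 fold change -0.79 ± 0.05 SE and -0.76 ± 0.06 SE, limma adjusted p = 0.00601 and 0.00894). The muscle isoform ACTA2, at 6.72 and 9.58 TPM and 10.9 and 13.5 TPM, was not called. Of 9 tested alpha and beta tubulins 7 fell and none rose, TUBA1B from 1471 and 1545 TPM to 835 and 862 TPM (log2 fold change -0.83 ± 0.05 SE, limma adjusted p = 0.00567) and TUBB from 808 and 848 TPM to 489 and 502 TPM (log2 fold change -0.74 ± 0.05 SE, limma adjusted p = 0.00625), while the neuronal isotype TUBB3 stayed at 31.2 and 34.2 TPM and 33.4 and 31.4 TPM without a call. TAGLN, an actin-binding protein of contractile cells, fell from 33.1 and 36 TPM to 14.3 and 13.8 TPM (log2 fold change -1.24 ± 0.08 SE, limma adjusted p = 0.00562).

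YAP-linked matricellular genes, which respond to actin tension through YAP and TEAD factors, fell in 9 of 25 tested and rose in none, with a median of -0.26. F3, tissue factor, the trigger of coagulation, went from 691 and 691 TPM to 267 and 247 TPM (log2 fold change -1.43 ± 0.06 SE, limma adjusted p = 0.00273). CCN1, a matricellular protein, fell from 404 and 418 TPM to 203 and 197 TPM (log2 fold change -1.04 ± 0.05 SE, limma adjusted p = 0.00381), and FJX1, a secreted kinase-like protein, from 67.1 and 69.6 TPM to 34.4 and 32.4 TPM (log2 fold change -1.01 ± 0.06 SE, limma adjusted p = 0.00558). CCN2, usually named beside CCN1, was at 5.38 and 6.84 TPM and 4.85 and 5.97 TPM and was not called, and neither were YAP1, WWTR1, TEAD1 and TEAD4. In the WNT list 2 of 23 tested rose and 3 fell, shares near those of all tested genes. DKK1, a secreted WNT antagonist, fell from 145.8 and 155 TPM to 63.1 and 66.8 TPM (log2 fold change -1.20 ± 0.06 SE, limma adjusted p = 0.00421), the ligands WNT7A and WNT7B fell by 1.14 and 0.93, and WNT10A rose by 1.09. Of 20 matrix proteases and inhibitors 7 rose and 6 fell, MMP1, an interstitial collagenase, falling from 42.2 and 49.1 TPM to 16.2 and 15.8 TPM (log2 fold change -1.45 ± 0.10 SE, limma adjusted p = 0.00601) and MMP13, another collagenase, rising from 0.285 and 0.355 TPM to 3.92 and 3.09 TPM (limma adjusted p = 0.018). ADAMTS1 and ADAMTS6 fell by 1.34 and 1.36. Of 7 metallothionein and zinc genes 1 rose and 2 fell: MT2A, at 14341 and 16164 TPM in the controls, fell to 11896 and 11328 TPM, MT1X rose from 304 and 378 TPM to 704 and 721 TPM (limma adjusted p = 0.0454 and 0.0119), and the zinc transporter SLC39A10 fell by 0.55.

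**Figure D4:**
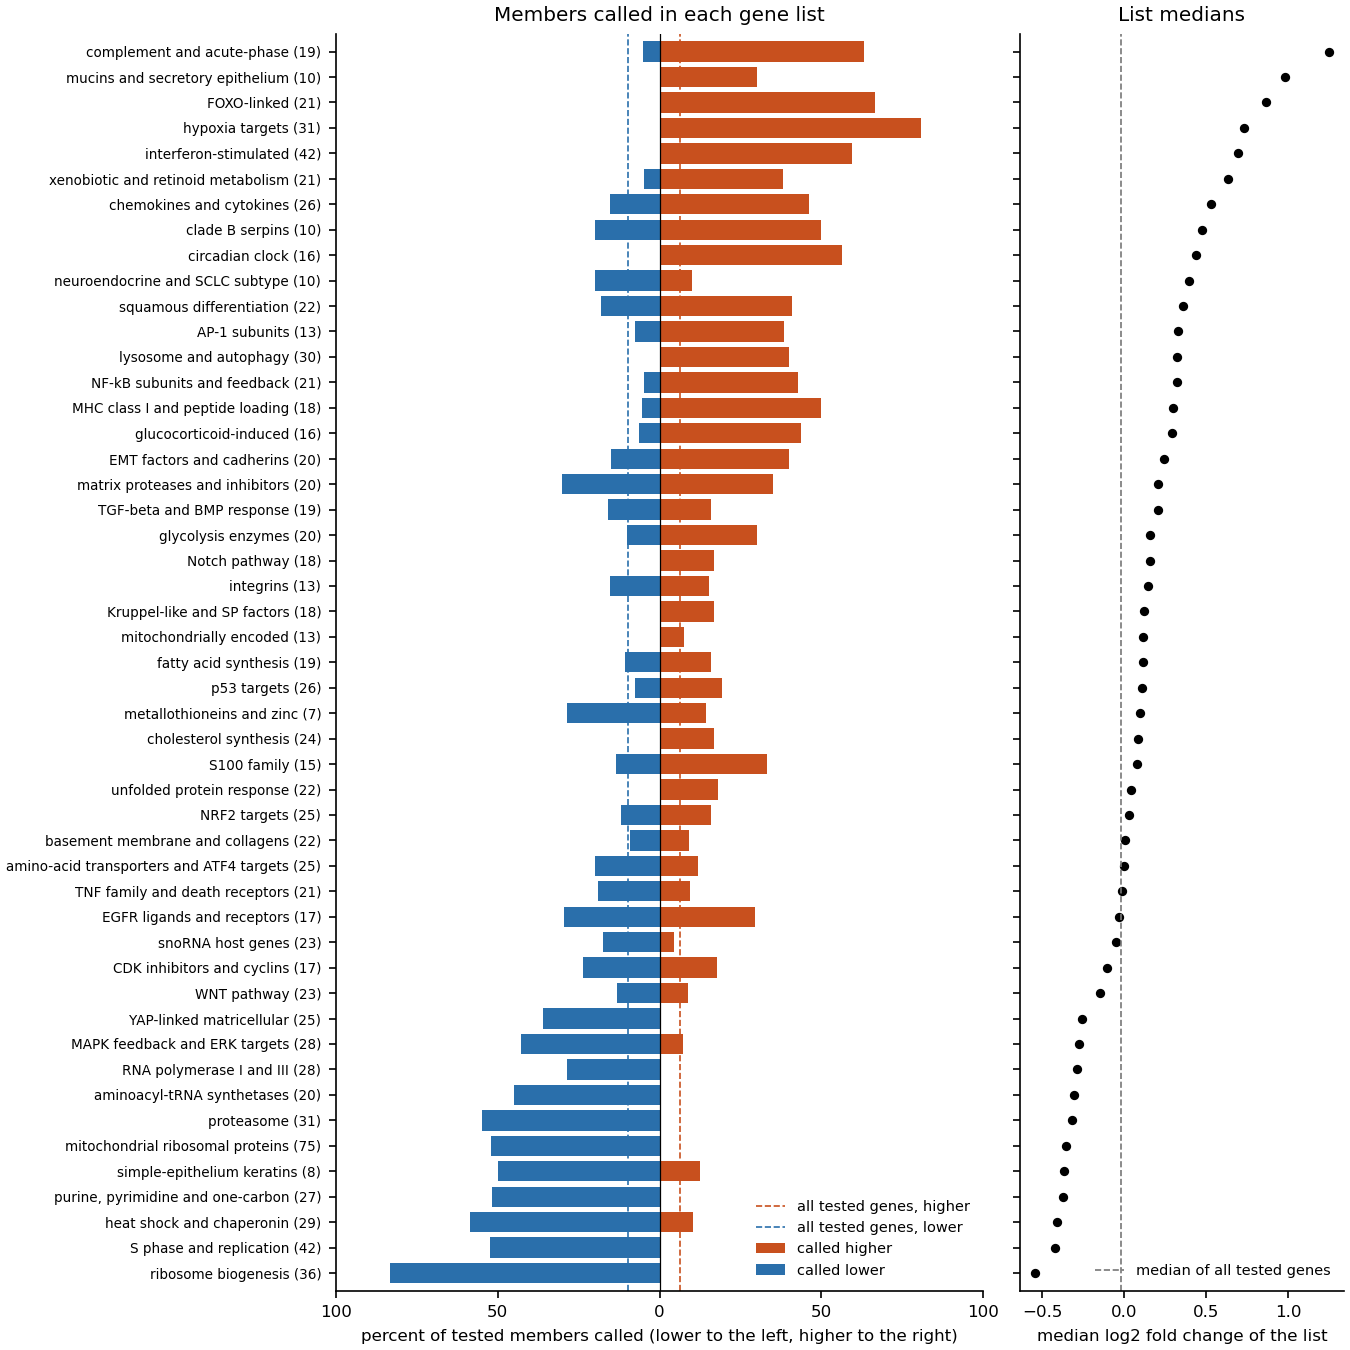
Left, percent of tested members called in each gene list with at least 7 of them, plotted as called higher (to the right) or lower (to the left) by limma, with dashed lines at 6.38% and 9.74%, the shares among all 14740 tested genes; the number tested is in brackets. Right, the median log2 fold change of each list, from -0.55 for ribosome biogenesis to 1.25 for complement and acute-phase genes.

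With the labels as given, genes called in both lines mostly moved in opposite directions. The comparisons of the lines share no control libraries. Of 11100 genes tested in both, 408 were called in both, which is 21.0% of the 1942 NCI-H1688 calls and 21.6% of the 1888 NCI-H146 calls among them. In NCI-H146 8.01% of tested genes were called higher and 9.12% lower. Of the 408 genes 334 moved in opposite directions, 128 higher in NCI-H1688 and lower in NCI-H146 and 206 the reverse, and 74 moved the same way, 37 up and 37 down. KLF9 itself differed in direction between the lines. These directions rest on the NCI-H1688 labels, which KLF9 goes against: if its groups were exchanged, the 334 genes would count as moving the same way and the 74 as opposite. Whether they were exchanged was not tested. The tables were normalized separately and the values are in different units, so the difference between lines was not tested.

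All 21 tested FOXO-linked genes were also tested in NCI-H146, where 13 were called. Of the 10 called in both lines, 10 moved in opposite directions with the labels as given, beside 334 of all 408 shared calls. ARRDC3 fell in NCI-H146 from 48.0 and 42.0 to 10.9 and 13.2 CPM (log2 fold change -1.90 ± 0.30 SE, edgeR adjusted p = 0.00183). BCL6 fell there from 47.9 and 42.3 to 12.4 and 10.5 CPM, and CCNG2 from 46.2 and 34.1 to 8.19 and 11.6 (log2 fold change -1.98 and -2.02, edgeR adjusted p = 0.00142 and 0.00183). NR4A2, an orphan nuclear receptor of the immediate early genes, rose in NCI-H1688 from 4.16 and 4.28 TPM to 12.7 and 14.2 TPM (log2 fold change 1.47 ± 0.11 SE, limma adjusted p = 0.00731) and fell in NCI-H146 from 12.8 and 9.15 to 1.69 and 1.06 CPM. Movers in the same direction included MIR210HG, the host transcript of a hypoxia-induced microRNA, which rose in NCI-H1688 from 6.51 and 4.08 TPM to 57.7 and 50.8 TPM and in NCI-H146 from 3.23 and 4.25 to 6.43 and 18.7 CPM. HLA-F, a non-classical class I gene, rose from 4.2 and 6.36 TPM to 16.1 and 14.9 TPM in NCI-H1688 and by 1.21 ± 0.38 SE on the log2 scale in NCI-H146 (edgeR adjusted p = 0.0405). CCN1 fell in both, by 1.13 ± 0.33 SE on the log2 scale in NCI-H146 (edgeR adjusted p = 0.0293).

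**Figure D5:**
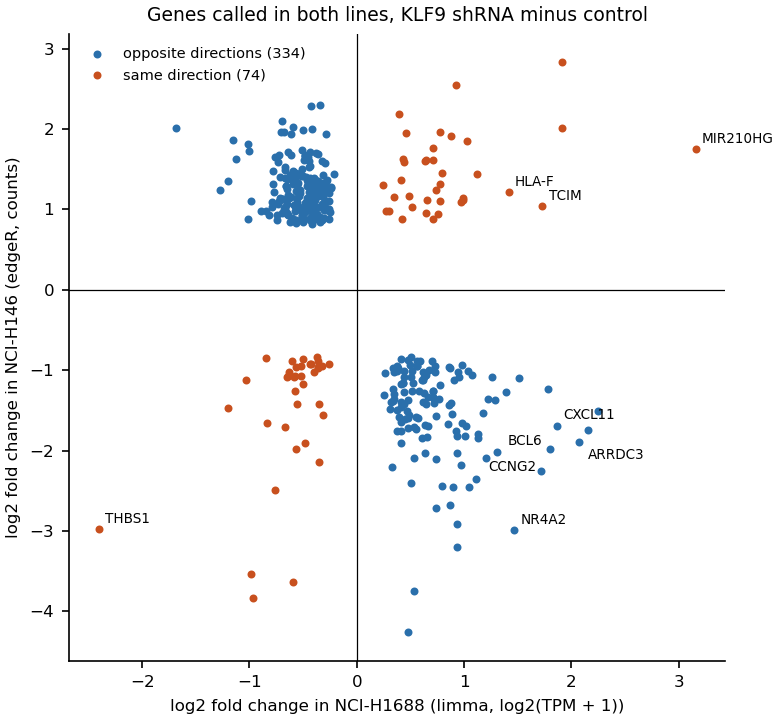
Log2 fold change of the 408 genes called in both lines, NCI-H1688 on the horizontal axis (limma on log2(TPM + 1)) and NCI-H146 on the vertical axis (edgeR on counts), 1 point per gene. The upper left and lower right quadrants hold the 334 genes that moved in opposite directions and the others the 74 that moved the same way.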

How the data were processed

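Poly(A) RNA of 2 control and 2 KLF9 shRNA libraries was measured in each line. Per the submitters' processing notes, STAR 2.5.1, DESeq2 and the GRCh38 (hg38) build were used; the counter, its annotation and its use of strand are not given in the sources used here. For NCI-H1688 the authors deposited TPM per gene, summing to 843186 to 885808 per library, with a median ratio between libraries of 1.00, so a scaling step that no header records may have been applied. For NCI-H146 the authors deposited raw counts per gene, 15406264 to 16109803 per library. TPM do not keep read counts, so the reads behind KLF9 were estimated from the low values of 4947 single-transcript genes, for NCI-H1688 only.

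Of 58434 rows, 30042 were 0 in every library and 1599 shared a name; genes were matched to GENCODE 29. Tests used limma 3.58.1 (R 4.3.3) with a trend on log2(TPM + 1), a filter at a mean of 1 TPM, both groups of 2 libraries, two-sided, adjusted by Benjamini-Hochberg over 14740 genes, and called at 0.05. For NCI-H146, edgeR 4.0.16 was applied to the counts (quasi-likelihood, TMM, 13129 genes). With 2 libraries against 2 an exact permutation test of a single gene cannot go below 0.333, so none is given. Fold changes on the log2(TPM + 1) scale understate the change of low genes. Both fits were tested on simulated data. Library correlations on that scale were 0.964 within controls, 0.958 within KLF9 shRNA libraries and 0.942 to 0.946 between them.

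The comparison, the 57 gene lists and the tests were chosen with earlier results of these data known. Genes named are KLF9, the 15 largest called rises and falls at 5 TPM or more, the 8 most abundant called each way, up to 5 called members per list with its most abundant member and close relatives, and 6 genes per direction between lines; any others were chosen after their values were seen. Promoter windows are RefSeq sequences of GRCh38.p14. Alternatives changed the pseudocount, filter, trend, scaling, replicate block and libraries.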

Additional observations from a re-analysis of the deposited data

Results flagged for a closer look

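The log2 fold change of 7 genes, KLF9 and 6 others, had opposite signs in the 2 lines. Every KLF9 shRNA library lay on one side of the controls in NCI-H1688 and on the other in NCI-H146. The 6 others were picked for being called in opposite directions, so their signs were fixed by that choice. Of all 408 genes called in both lines, 334 moved in opposite directions. The difference between lines was not tested, since the tables are in different units. The signs in NCI-H1688 follow its labels, which KLF9 goes against; with its groups exchanged, each of the 7 would have the same sign in both lines, and whether they were exchanged was not tested. KLF9, the targeted gene, was at 0.92 in NCI-H1688, where it was not called (limma adjusted p = 0.095), and at -1.17 in NCI-H146. ARRDC3 was at 2.07 against -1.90, BCL6 at 1.80 against -1.98 and CCNG2 at 1.31 against -2.02. NDRG1, a hypoxia-induced differentiation gene, was at 2.16 against -1.74. The chemokine CXCL11 was at 1.87 against -1.69, and NR4A2 at 1.47 against -2.99. Apart from KLF9 in NCI-H1688, each was called in both lines. Groups of 2 libraries are too small for a check of single libraries that stand out.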

How the results depend on the processing

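Among the named genes, no called value changed sign under an alternative that was run. Against 940 genes higher and 1436 lower, limma called 398 and 549 with no filter on low values, and 488 and 348 without the trend. With the replicate block it called 516 and 715; same-numbered libraries did not deviate together (r = -0.0026 over 14740 genes), so the libraries share only a number. Leaving out 1 library left 0 to 19 genes higher and 0 to 5 lower, the fit then resting on a lone library in 1 group. Of all calls 39.6% were higher, against 58.4% without the trend and 50.8% with mitochondrially encoded genes left out. KLF9 in NCI-H1688 was not called under any alternative run (log2 fold change 0.75 to 1.78, adjusted p 0.0628 to 0.169), and it has no value with a minimum of 5 TPM or without either KLF9 shRNA library, where its mean was below the minimum. KLF9 in NCI-H146 ranged from -1.37 to -0.98 without 1 library and lost its call without either control (edgeR adjusted p = 0.255 and 0.101); no paired analysis was possible there because the groups share only 1 replicate number. Of 278 other named genes, 92 lost their call without the trend, 69 with no filter on low values, 47 with the replicate block, 14 under quantile normalization, 5 with mitochondrially encoded genes left out and 247 to 262 without 1 library. Under each scaling 1 to 3 list medians changed sign, all with medians between -0.05 and 0.00457. Among genes of 1 to 5 TPM 3.17% were called higher and 1.33% lower; what part depth and the pseudocount had in these shares was not tested.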

Other observations

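Long noncoding transcripts, chosen after their values were seen, moved in both directions. MALAT1 and NEAT1, which stay in the nucleus, rose from 98.3 and 89.7 TPM to 147 and 144 TPM and from 431 and 440 TPM to 609 and 549 TPM (limma adjusted p = 0.0119 and 0.0264). RN7SL1 and RN7SL2, near-identical RNAs of the signal recognition particle without poly(A) tails of their own, fell from 956 and 1026 TPM to 544 and 662 TPM and from 2039 and 2306 TPM to 1292 and 1576 TPM (limma adjusted p = 0.0225 and 0.0394). How much of these non-polyadenylated RNAs each library captured was not tested.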
